A study of Homo sapiens with 2 samples.

Results

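Non-neural ectoderm (NNE) was the smallest of the 4 cell types annotated on day 10, when cells driven toward enteric neural crest still grew as a layer on a dish. Its members were the cells that the deposited annotation labels NNE, 239 of 7295 annotated cells, which were kept from 9627 cells in the day 10 library and from 15947 cells in the series. NNE made up 3.28% of the annotated cells (exact binomial 95% interval 2.88 to 3.71). The other types were enteric neural crest cells (ENCCs, 4921 cells), the migratory precursors of gut neurons and glia, neuro-epithelial progenitors (NEP, 1811 cells) and cranial placode cells (CP, 324 cells).

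All cells derive from 1 human embryonic stem cell line, H9. They grew on Geltrex, a basement membrane extract, first with BMP4, SB431542 (an inhibitor of TGF beta receptors) and CHIR 99021 (a GSK3 inhibitor that activates WNT signalling), then without BMP4, and lastly with retinoic acid added. The day 15 library held free-floating crestospheres made from such cultures in a medium with FGF2 and CHIR 99021. Biological repeats were pooled within a library and the deposited tables do not tell them apart, so each stage is 1 sample (n = 1) without a replicate check.

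Non-neural ectoderm is the ectoderm outside the neural plate, from which epidermis arises, and its border with the plate gives rise to neural crest and placodes. It forms where BMP signalling is high. It grows as a polarized epithelial sheet joined by E-cadherin and claudins, with simple keratins first and stratified keratins only once epidermis matures. Amnion is a neighbouring epithelium that shares many of these genes.

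Levels are summed unique molecular identifiers (UMIs) of a type per 1000000 UMIs of that type (CPM), with exact Poisson 95% intervals, and shares of cells carry exact Clopper-Pearson 95% intervals. Both kinds of interval cover counting error only. The study drew its clusters from these same counts, so NNE set against the other types describes the annotation and no test was made. The 239 NNE cells held 1846201 UMIs, a median of 7349 per cell (2788 to 16947), close to the medians of 7438 in CP, 7227 in NEP and 7004 in ENCCs. Ribosomal genes took a median of 36.2% of UMIs in NNE and 36.8% in NEP, against 42.2% in CP and 44.7% in ENCCs, and the part of this difference in the results was not tested. Of the NNE barcodes, 1 also occurred in the day 15 library, among 102 barcodes that the libraries shared.

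The label is described first by the markers EPCAM, CLDN7, KRT7, CLDN4 and ABCG2. EPCAM (chr2:47345158-47387601 on GRCh38, plus strand) encodes an epithelial adhesion molecule, and its level was 248 CPM in NNE, 9.62 in NEP, 1.60 in CP and 2.92 in ENCCs. The tight junction claudin gene CLDN7 (chr17:7259903-7263983, minus strand) was at 349 CPM in NNE, 4.49 in NEP, 0.798 in CP and 0.677 in ENCCs. KRT7 (chr12:52232520-52252186, plus strand) encodes a keratin of simple epithelia, and its level was 352 CPM in NNE, 3.63 in NEP, 0 in CP and 0.704 in ENCCs. In each case NNE stood alone, and NEP, next in order for all 3 genes, was below it by 25.7-fold (95% interval 21.2 to 31.4), 77.7-fold (95% interval 59.9 to 102) and 96.8-fold (95% interval 72.7 to 131), respectively.

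A second claudin gene, CLDN4 (chr7:73799542-73832693, plus strand), was at 194 CPM in NNE, 3.78 in NEP, 0.798 in CP and 1.03 in ENCCs. ABCG2 (chr4:88090264-88231322, minus strand), the gene of an efflux transporter, was at 152 CPM in NNE, 1.50 in NEP, 0 in CP and 0.325 in ENCCs. CDH1, which encodes E-cadherin, was at 94.2 CPM in NNE, 1.64 in NEP, 0.798 in CP and 0.352 in ENCCs. All 5 markers were highest in NNE. Because the clusters were drawn from these same counts, this describes the label and cannot test it. The plot of epithelial and mesenchymal genes shows the gap to each other type. In CP, KRT7 and ABCG2 had 0 UMIs, which puts NNE at least 294-fold and at least 127-fold higher when 3 UMIs are allowed over the CP cells.

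**Figure D1:**
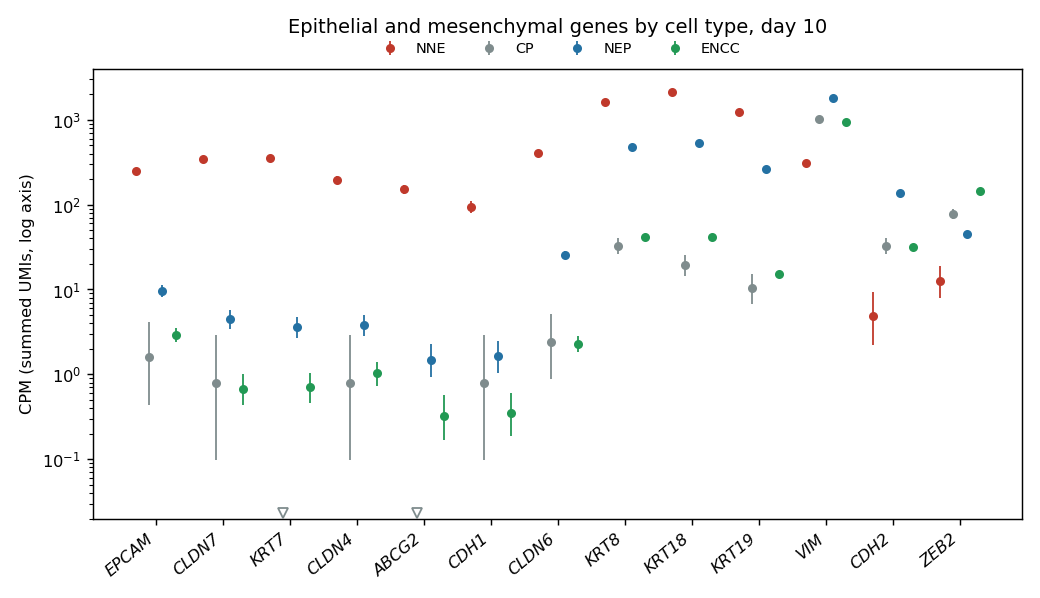
Levels of 13 genes (CPM, log axis) in the 4 day 10 types, as points with Poisson 95% intervals, which are often smaller than the points. Open triangles mark 0 UMIs. NNE is highest for the epithelial genes and lowest for VIM, CDH2 and ZEB2, and NEP lies between NNE and the other types for KRT8, KRT18 and KRT19.

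Single cells carried the markers in combination. When every cell was thinned to 3000 UMIs, which left out 4 NNE cells, at least 3 of the 5 markers were found in 115 of 235 NNE cells, or 48.9% (42.4 to 55.5). The same held for 5 of 1798 NEP cells, 0 of 323 CP cells and 0 of 4919 ENCCs. The exact upper limits for a count of 0 were 1.14% in CP and 0.0750% in ENCCs. Without thinning, 198 of 239 NNE cells (82.8%) reached 3 markers, and none of the 239 lacked all 5. The single markers were found in 34.9% (ABCG2) to 60.0% (CLDN7) of NNE cells at 3000 UMIs and in at most 2.28% of the cells of any other type. The bar plot of markers per cell gives the whole distribution.

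**Figure D2:**
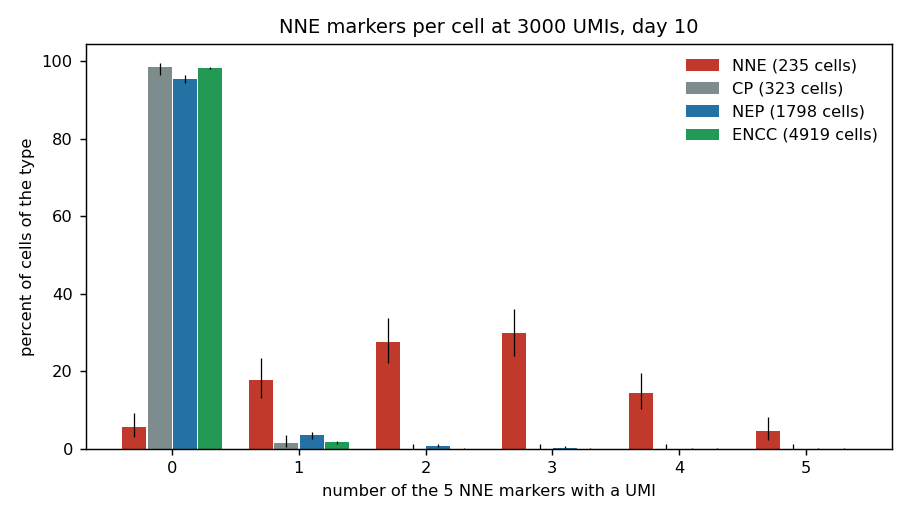
Percent of the cells of each day 10 type (bars, with exact binomial 95% intervals) by how many of the 5 NNE markers had a UMI after each cell was thinned to 3000 UMIs. NNE cells spread from 0 to 5 markers with most at 2 or 3, and over 95% of the cells of each other type had none.

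Of 8546 genes that reached 10 CPM in some type, 446 (5.22%) were at least 2-fold above all 3 other types in NNE on the log2(CPM + 1) scale, which understates folds of low genes. A further 216 (2.53%) were at least 2-fold below all 3, a count that was 78 with a pseudocount of 5 and 361 with cells thinned to 3000 UMIs. A gene can reach 10 CPM through NNE alone, so a list member high only in NNE is compared and then counted above. The list counts below are therefore descriptive and stand beside these all-gene shares. The median difference over all compared genes was 0.12 against CP and 0.13 against ENCCs, and it was -0.01 and -0.09 under TMM scaling, so differences of this size are within the choice of scaling. Against NEP it lay near 0 under both. For 361 of the 446 genes (80.9%), the next highest type was NEP. Over all compared genes the log2 profiles of NNE and NEP correlated at r = 0.851, those of NNE and ENCCs at 0.820 and those of NNE and CP at 0.761, as a description across genes within 1 library. NEP and ENCCs correlated at 0.891, so NEP was closer to ENCCs than to NNE, CP and NEP at 0.842, and CP and ENCCs at 0.934.

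The 25 leading genes were those with the largest smallest ratio over the 3 other types among 2157 genes with at least 50 CPM in NNE and found in 10% or more of its cells. They were the 5 markers, CDH1, the claudin gene CLDN6, the epithelial trafficking gene AP1M2, the splicing regulator gene ESRP1, the protease inhibitor gene SPINT1 and the transcription factor gene SP6, together with TINAGL1, FILIP1L, ERP27, IGFBP3, PAK6, LCP1, SFRP4, HAPLN1, CCNO, MYL4, ANXA3, MAOA, CYP1A1 and TMEM54. HAPLN1, whose product links hyaluronan to proteoglycans, was at 386 CPM in NNE, 10.6 in NEP, 2.79 in CP and 1.62 in ENCCs. MYL4, an embryonic and atrial myosin light chain gene, was at 333 CPM in NNE, 11.9 in NEP, 2.39 in CP and 1.19 in ENCCs. LCP1, which encodes the actin bundling protein L-plastin, was at 153 CPM in NNE, 2.78 in NEP, 0.399 in CP and 0.487 in ENCCs. These genes outside the junction and keratin families separated NNE from NEP by 36.4-fold (95% interval 30.5 to 43.7), 28.0-fold (95% interval 23.5 to 33.4) and 55.0-fold (95% interval 39.2 to 79.0).

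Not all leading genes were spread evenly over the 239 cells. SFRP4, a secreted WNT antagonist gene, was at 52.0 CPM in NNE, 0.356 in NEP, 0 in CP and 0.0271 in ENCCs, but only 31 NNE cells had a UMI and the 24 highest cells held 92.7% of its UMIs. CYP1A1, an enzyme gene of the aryl hydrocarbon response, had UMIs in 63 cells, with 67.2% in the top 24. By contrast CLDN6 had UMIs in 211 cells, with 27.5% in the top 24. CLDN6, an early epithelial claudin gene, was at 410.0 CPM in NNE, 25.5 in NEP, 2.39 in CP and 2.30 in ENCCs.

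Promoter sequence was available for 17 of the 25 leading genes and for 10 of the 12 genes lowest in NNE, as RefSeq windows (GRCh38.p14) from 250 bases before to 50 after an annotated start. They were searched for the E-box CACCTG on both strands (read as CAGGTG on the other). The repressors of epithelial genes ZEB1, ZEB2, SNAI1 and SNAI2 are known to bind these letters. As given below, ZEB1 and ZEB2 were lowest in NNE, whereas SNAI2 was alike in NNE and ENCCs and lower in CP and NEP. The letters stood in 9 of 27 windows of the leading genes (33.3%), in 0 of 14 windows of the lowest genes, and in 20.6% of all 35116 windows. The CLDN7 window at chr17:7262429-7262728 (minus strand), 1 of 2 for that gene, of which the other held none, held 5, a number reached by 33 windows in all. The AP1M2 window at chr19:10587263-10587562 (minus strand) held 3, and 0.635% of all windows held 3 or more, while the CLDN6 window at chr16:3018134-3018433 (minus strand) held 1. They are printed from 5′ to 3′ along the gene with the E-box in capitals, as 3 chosen examples that include the windows with most matches. Of the leading genes not printed, ANXA3 held 2, and CYP1A1, IGFBP3, LCP1, PAK6 and SPINT1 held 1 each.
CLDN7: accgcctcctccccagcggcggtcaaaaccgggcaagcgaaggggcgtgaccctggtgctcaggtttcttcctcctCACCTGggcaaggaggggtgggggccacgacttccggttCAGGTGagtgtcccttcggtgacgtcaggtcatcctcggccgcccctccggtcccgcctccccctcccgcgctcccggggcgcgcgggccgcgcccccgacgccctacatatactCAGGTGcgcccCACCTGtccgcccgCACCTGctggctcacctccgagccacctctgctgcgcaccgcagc
AP1M2: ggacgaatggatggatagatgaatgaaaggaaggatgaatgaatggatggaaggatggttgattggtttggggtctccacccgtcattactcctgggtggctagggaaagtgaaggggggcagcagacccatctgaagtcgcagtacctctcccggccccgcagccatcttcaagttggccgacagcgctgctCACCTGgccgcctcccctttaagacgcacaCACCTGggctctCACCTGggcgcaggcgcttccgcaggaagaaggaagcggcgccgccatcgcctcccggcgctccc
CLDN6: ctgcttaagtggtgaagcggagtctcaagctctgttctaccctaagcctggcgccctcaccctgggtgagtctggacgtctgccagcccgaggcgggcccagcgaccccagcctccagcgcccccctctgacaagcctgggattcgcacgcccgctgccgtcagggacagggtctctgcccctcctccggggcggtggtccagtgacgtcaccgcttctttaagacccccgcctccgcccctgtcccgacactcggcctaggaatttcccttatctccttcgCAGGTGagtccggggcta
Counted from the start site, the E-boxes of CLDN7 began at positions -174, -135, -20, -9 and 6, those of AP1M2 at -57, -27 and -15, and that of CLDN6 at 33. A match describes the letters only, and binding was not measured.

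Simple epithelial keratins, the intermediate filament proteins of single-layered epithelia, were high in NNE and present at a lower level in NEP. Of 7 genes, the marker KRT7 among them, 5 were compared. All 5 were at least 2-fold above all 3 other types, against 5.22% of all compared genes. KRT8 was at 1601 CPM in NNE, 483 in NEP, 32.7 in CP and 41.2 in ENCCs. KRT18, its partner, was at 2151 CPM in NNE, 538 in NEP, 19.5 in CP and 41.8 in ENCCs, and KRT19 at 1225 CPM in NNE, 266 in NEP, 10.4 in CP and 15.3 in ENCCs. These 3 genes had UMIs in 92.3% to 95.3% of NNE cells at 3000 UMIs but also in 44.0% to 59.8% of NEP cells, unlike KRT7, found in 0.945% of NEP cells. Keratins of stratified epithelium gave a different picture, for 9 of 10 genes stayed under 10 CPM in every type. KRT5 and KRT14, the pair of basal epidermis, had 0 UMIs in NNE, which allows up to 1.62 CPM. The exception was KRT10, at 79.1 CPM in NNE, 81.8 in NEP, 79.4 in CP and 65.8 in ENCCs, a level alike in all types.

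Tight junction genes, which seal epithelial sheets, were above all 3 other types by 2-fold for 7 of 13 compared genes of 16, and for none below. Over all compared genes 5.22% were above and 2.53% below, and the list holds the markers CLDN4 and CLDN7. F11R, a junctional adhesion molecule gene, was at 54.2 CPM in NNE, 13.5 in NEP, 5.58 in CP and 5.90 in ENCCs, and MARVELD3 at 32.0 CPM in NNE, 1.71 in NEP, 0 in CP and 0.325 in ENCCs. The scaffold gene TJP1 was at 108 CPM in NNE, 81.1 in NEP, 85.4 in CP and 89.2 in ENCCs, under 2-fold apart, and CLDN1, another claudin gene, was at 1.08 CPM in NNE, 26.7 in NEP, 1.60 in CP and 1.71 in ENCCs, the highest value being that of NEP. CXADR, an adhesion receptor gene of junctions, was likewise higher in NEP (189.9 CPM) than in NNE (131 CPM).

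Adherens junction and desmosome genes were above all 3 types for 10 of 11 compared genes of 16, against 5.22% of all compared genes. Desmoplakin (DSP), the desmosomal plaque protein gene, was at 179.8 CPM in NNE, 37.6 in NEP, 1.20 in CP and 3.30 in ENCCs. PKP2, a plakophilin gene, was at 75.8 CPM in NNE, 14.7 in NEP, 3.59 in CP and 1.11 in ENCCs, and PERP, a desmosome-associated membrane protein gene, at 224 CPM in NNE, 93.9 in NEP, 11.6 in CP and 10.9 in ENCCs. PKP3 was at 14.6 CPM in NNE and at most 0.214 CPM elsewhere. The epidermal desmosome genes DSG3 and PKP1 had 0 UMIs in NNE, and DSC3 had 2. By contrast DSC2 and DSG2, the desmosomal cadherin genes of simple epithelia, were at 113 and 49.8 CPM in NNE and 38.8 and 23.2 CPM in NEP.

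Apical and epithelial protease genes gave 11 of 11 compared genes (of 14) above all 3 types, against 5.22% of all compared genes. EZR, which anchors microvilli to actin, was at 217 CPM in NNE, 27.4 in NEP, 29.5 in CP and 10.8 in ENCCs. RAB25, an epithelial recycling GTPase gene, was at 159 CPM in NNE, 22.0 in NEP, 0.798 in CP and 1.89 in ENCCs. SPINT1 and SPINT2 encode inhibitors of membrane serine proteases, and SPINT2 was at 481 CPM in NNE, 217 in NEP, 36.3 in CP and 22.8 in ENCCs. PRSS8, the gene of such a protease, was at 45.0 CPM in NNE, 3.70 in NEP, 0 in CP and 0.298 in ENCCs, so protease and inhibitor genes were both highest in NNE.

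Regulators of epithelial identity were detected at low counts. Of 14 genes, 7 were compared and 6 were above all 3 types, against 5.22% of all compared genes. Some of these, such as GRHL1 and GRHL2, were compared only because NNE itself reached 10 CPM. ELF3, an epithelial ETS factor gene, was at 181 CPM in NNE, 14.5 in NEP, 2.39 in CP and 0.920 in ENCCs. ESRP1, which directs epithelial splicing, was at 50.9 CPM in NNE, 1.14 in NEP, 0 in CP and 0.460 in ENCCs. GRHL1 and GRHL2, grainyhead factor genes of surface ectoderm, had only 27 and 25 UMIs in NNE (14.6 and 13.5 CPM) and at most 1.60 CPM elsewhere. TP63, the master regulator gene of stratified epithelium, had 4 UMIs in NNE, or 2.17 CPM (95% interval 0.590 to 5.55), against 0 in CP and ENCCs and 1 in NEP. EHF had 0 UMIs and ZNF750, a regulator of epidermal differentiation, had 1.

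Surface ectoderm transcription factors split into those highest in NNE and those as high in NEP or in the crest. Of 15 genes, 12 were compared, 7 were above all 3 types and none below, against 5.22% and 2.53% of all compared genes. TFAP2A, a factor of surface ectoderm and neural crest, was at 399.7 CPM in NNE, 10.9 in NEP, 112 in CP and 35.6 in ENCCs. MSX2, a BMP target, was at 196 CPM in NNE, 54.7 in NEP, 3.19 in CP and 5.17 in ENCCs, and TBX3 at 87.7 CPM in NNE, 6.41 in NEP, 23.1 in CP and 4.38 in ENCCs. GATA2, DLX3, DLX4 and DLX5 were at 16.2 to 40.1 CPM in NNE and at most 7.98 CPM elsewhere.

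Other members of the list did not set NNE apart. GATA3 was at 159 CPM in NNE, 88.7 in NEP, 3.19 in CP and 7.50 in ENCCs, and MSX1 at 50.4 CPM in NNE, 48.4 in NEP, 2.79 in CP and 3.87 in ENCCs, so NEP came within 2-fold for both. TFAP2B was highest in CP and ENCCs (473 and 425 CPM) and lower in NNE (87.7 CPM), whereas its relative TFAP2A was highest in NNE. TFAP2C was at 21.1 CPM in NNE, 23.4 in NEP, 12.4 in CP and 5.49 in ENCCs. FOXI3, a gene of the preplacodal ectoderm, had 2 UMIs in NNE.

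Amnion and trophoblast genes were examined because these epithelia share BMP response and simple keratins with surface ectoderm. Of 18 genes, 9 were compared and 6 were above all 3 types, namely ABCG2, IGFBP3, TBX3, VGLL1, XAGE2 and SLC7A2. The share over all compared genes was 5.22%. ABCG2 is also among the markers and TBX3 in the preceding list. IGFBP3, an insulin-like growth factor binding protein gene, was at 84.5 CPM in NNE, 1.07 in NEP, 0.399 in CP and 0.135 in ENCCs. VGLL1, a TEAD cofactor gene of trophoblast, was at 32.5 CPM in NNE, 0.0712 in NEP, 0 in CP and 0.0271 in ENCCs, with UMIs in 41 of 239 cells. XAGE2 was at 23.8 CPM in 20 cells and at most 0.214 CPM elsewhere.

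Several other members of the list had few UMIs. GABRP had 2 UMIs and ISL1 had 1 in the 239 NNE cells, and both CGB5 and S100P had 0. CGA had 5 UMIs (2.71 CPM), CDX2 had 6, VTCN1 had 12 in 9 cells and HAND1 had 17 in 9 cells. HAND1 was at 9.21 CPM in NNE, 1.07 in NEP, 0 in CP and 0.0271 in ENCCs, and CDX2 at 3.25 CPM in NNE, 0.427 in NEP, 0 in CP and 0.0271 in ENCCs, so both low genes were highest in NNE. The summed level of the list was 473 CPM in NNE, 59.8 in NEP, 153 in CP and 20.0 in ENCCs, and ISL1 made up most of the CP sum (112 CPM). Which epithelium these cells would become was not measured.

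Over the compared members of each list, the median log2 difference summarizes these counts, beside all-gene medians close to 0. The median is taken over members that reached 10 CPM in some type, some of them in NNE alone. It was 2.20 against NEP, 6.71 against CP and 5.65 against ENCCs for simple keratins. For tight junction genes the medians were 1.91 against NEP, 3.07 against CP and 3.09 against ENCCs, and for adherens junction and desmosome genes 2.23 against NEP, 4.09 against CP and 3.93 against ENCCs. Surface ectoderm transcription factors were at 2.01 against NEP, 3.29 against CP and 3.75 against ENCCs, and amnion and trophoblast genes at 3.58 against NEP, 3.66 against CP and 4.04 against ENCCs. The plot of gene lists shows the single genes, including CLDN1 far to the left of its list against NEP and ISL1 far to the left of its list against CP.

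**Figure D3:**
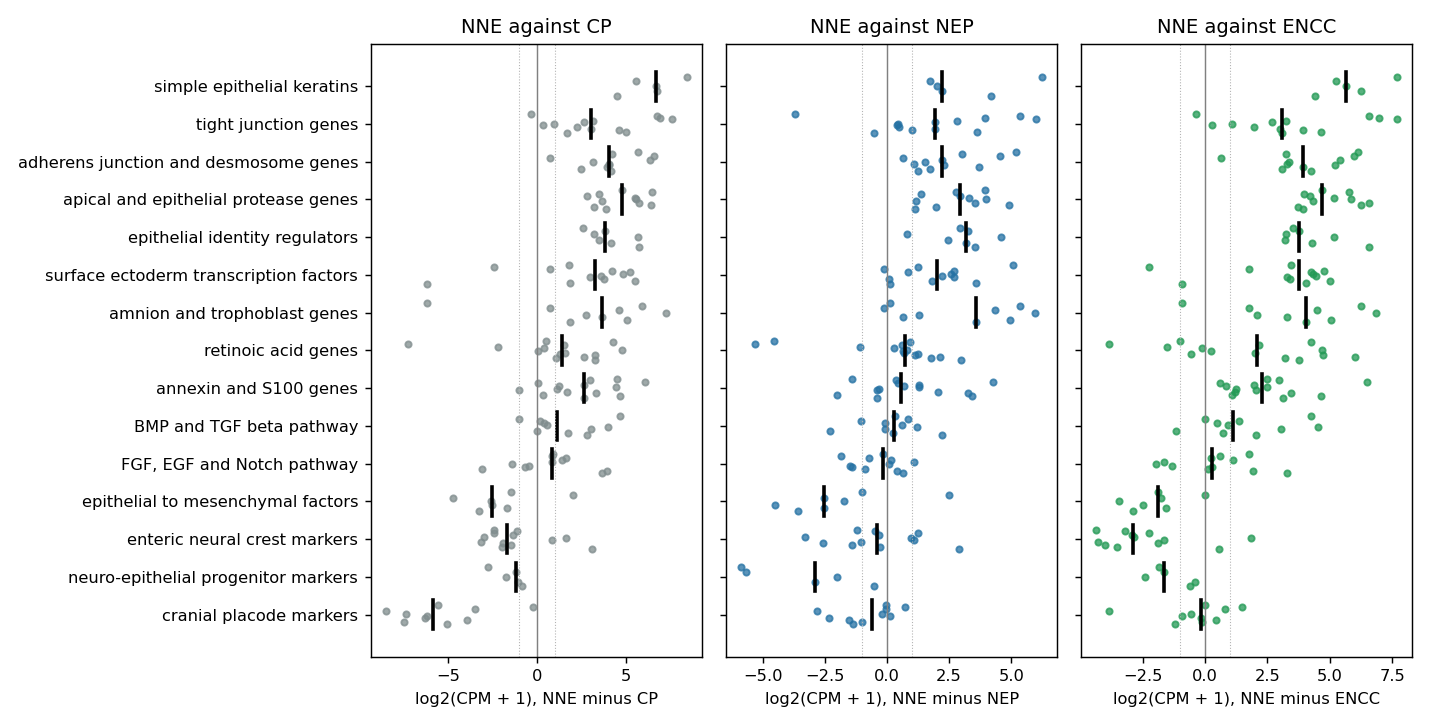
Differences in log2(CPM + 1) of NNE from CP (left), NEP (middle) and ENCCs (right) for the compared genes of 15 gene lists, 1 point per gene, with the median of each list as a bar and 2-fold as dotted lines. The medians of the first 7 lists lie at 1.91 or more in all 3 panels and those of the last 4 below 0, while the 4 lists between them have medians under 1 against NEP.

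Genes of the mesenchymal state were low. Of 10 factors and targets of the epithelial to mesenchymal transition, 7 were compared, 6 were below all 3 types and none above. Over all compared genes, 2.53% were below and 5.22% above. VIM, the intermediate filament gene of mesenchymal and neural cells, was at 311 CPM in NNE, 1828 in NEP, 1014 in CP and 934 in ENCCs. CDH2, which encodes N-cadherin, was at 4.87 CPM in NNE, 135 in NEP, 32.7 in CP and 31.9 in ENCCs, and CDH6 at 5.96 CPM in NNE, 83.1 in NEP, 66.2 in CP and 50.6 in ENCCs. The repressor gene ZEB2 was at 12.5 CPM in NNE, 44.5 in NEP, 78.2 in CP and 145 in ENCCs, and ZEB1 at 1.08 CPM in NNE, 11.3 in NEP, 53.8 in CP and 6.14 in ENCCs.

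SNAI2 did not follow them. This repressor gene, a classic neural crest factor, was at 39.0 CPM (95% interval 30.5 to 49.1) in NNE and 39.1 CPM (95% interval 37.1 to 41.2) in ENCCs, and at 8.77 CPM in CP and 6.20 in NEP. TWIST1 had 0 UMIs in NNE. Among general mesenchymal markers COL5A2 stood out at 92.6 CPM in NNE, 13.7 in NEP, 13.6 in CP and 18.0 in ENCCs. It was the sole gene of 3 compared (of 10) above all types, against 5.22% of all compared genes. COL1A2 was at 117 CPM in NNE, 153 in NEP, 199 in CP and 424 in ENCCs, and PRRX1 had 0 UMIs in NNE.

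The 12 lowest genes of NNE were chosen among 1559 genes with at least 50 CPM in each other type. They were CRABP1, CDH6, PAX3, CDCA7L, VCAN, TPM2, FEZ1, NR2F1, CKB, VIM, FABP5 and NOVA1. PAX3, a paired box factor gene of the neural plate border, was at 8.12 CPM in NNE, 89.5 in NEP, 71.4 in CP and 65.0 in ENCCs. The orphan receptor gene NR2F1 was at 36.8 CPM in NNE, 229 in NEP, 138 in CP and 139 in ENCCs, and versican (VCAN) at 10.8 CPM in NNE, 78.7 in NEP, 63.4 in CP and 136 in ENCCs. The tropomyosin gene TPM2 was at 75.3 CPM in NNE, 329.8 in NEP, 319 in CP and 317 in ENCCs, so that the 3 other types were alike and NNE alone was low.

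Markers of the other cell types were compared next. All 12 ENCC markers were compared, 5 were below all 3 types and none above, against 2.53% and 5.22% of all compared genes. SOX10, the defining crest factor, was at 4.87 CPM in NNE, 12.6 in NEP, 29.9 in CP and 119.7 in ENCCs. Single NNE cells with crest transcripts were few, for 8 of 239 (3.35%) had a SOX10 or FOXD3 UMI against 61.4% of ENCCs. EDNRB, an endothelin receptor gene mutated in some Hirschsprung disease, was at 54.7 CPM (95% interval 44.6 to 66.5) in NNE and at 36.4 CPM (95% interval 34.5 to 38.4) in ENCCs. It was at 6.55 CPM in NEP and 5.58 in CP. These intervals leave out the spread between cells, and the difference was not tested. SOX9, a crest and progenitor factor gene, was at 27.1 CPM in NNE, 13.4 in NEP, 7.98 in CP and 6.82 in ENCCs.

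NEP markers were low in NNE. Of 10 genes, 5 were compared and 3 were below all types, against 2.53% of all compared genes. PAX6 was at 8.67 CPM in NNE, 572 in NEP, 63.8 in CP and 34.2 in ENCCs, and WNT2B at 15.2 CPM in NNE, 827 in NEP, 35.5 in CP and 49.6 in ENCCs. OTX2, a forebrain and anterior ectoderm gene, was at 8.12 CPM in NNE, 68.0 in NEP, 18.3 in CP and 10.9 in ENCCs. SOX2 was at 3.25 CPM in NNE, 16.1 in NEP, 13.2 in CP and 21.2 in ENCCs.

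CP was compared with NNE as the other small type of the library, although its profile was the least like that of NNE (r = 0.761). NNE was at least 2-fold above CP for 1234 genes (14.4% of those compared) and below it for 670 (7.84%). The 12 genes furthest above were KRT7, CLDN7, ABCG2, TINAGL1, CCNO, CYP1B1, CLDN6, LCP1, CLDN4, KRT19, KRT18 and HAPLN1. CYP1B1, a cytochrome P450 gene, was at 121 CPM in NNE, 30.2 in NEP, 0 in CP and 2.35 in ENCCs, and it was the only 1 of these 12 besides KRT18 and KRT19 with over 30 CPM in NEP. The 12 genes furthest below were NEUROG1, NHLH1, STMN2, SEPT4, NEUROD1, CRABP1, ONECUT2, NEFM, POU4F1, MFNG, CXCR4 and ISL1.

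NEUROG1, the proneural factor gene of cranial sensory neurons, was at 362 CPM in CP and had 0 UMIs in NNE, at least 223-fold lower when 3 UMIs are allowed. EYA2, the gene of a placode transcription cofactor, was at 33.9 CPM in CP and 2.17 CPM in NNE. Of 12 placode markers, 10 were compared and 9 were at least 2-fold below CP, against 7.84% of all compared genes. SIX4 was at 10.3 CPM in NNE, 5.84 in NEP, 12.0 in CP and 3.00 in ENCCs.

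Genes of the BMP pathway, the signal of surface ectoderm, were shared with NEP in large part. Of 23 genes, 10 were compared, 2 were above all 3 types and none below, against 5.22% and 2.53% of all compared genes. BMP4, the ligand gene, was at 147 CPM in NNE, 117 in NEP, 4.79 in CP and 6.87 in ENCCs. Of the ID genes, direct BMP targets, ID1 was at 1537 CPM in NNE, 671 in NEP, 95.7 in CP and 66.1 in ENCCs, ID2 at 510.2 CPM in NNE, 547 in NEP, 61.4 in CP and 61.3 in ENCCs and ID3 at 322 CPM in NNE, 1585 in NEP, 326 in CP and 714 in ENCCs, so ID1 was highest in NNE, ID2 was alike in NNE and NEP, and ID3 was highest in NEP. BAMBI, a pseudoreceptor gene and target, was at 17.3 CPM in NNE, 2.99 in NEP, 1.60 in CP and 3.49 in ENCCs. The secreted BMP antagonist genes NOG and GREM1 had 0 UMIs in NNE and were at 8.33 and 3.35 CPM in NEP.

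Of 24 WNT pathway genes, 11 were compared, 3 were above all 3 types and 1 below. Over all compared genes 5.22% were above and 2.53% below. Those above were the ligand gene WNT3 (10.3 CPM) and RNF43 and ZNRF3, ubiquitin ligase genes that clear WNT receptors (16.2 and 16.8 CPM), with NEP levels of 1.35, 1.99 and 7.76 CPM. The 1 below was SFRP2, a secreted WNT antagonist gene, at 5.42 CPM in NNE, 468 in NEP, 12.0 in CP and 35.2 in ENCCs. AXIN2, a feedback target, was at 17.3 CPM in NNE, 23.2 in NEP, 5.98 in CP and 11.2 in ENCCs. In the list of FGF, EGF and Notch genes, 11 of 26 were compared and 0 were above or below all 3 types, beside the same all-gene shares. HES1, a Notch and BMP target, was at 71.0 CPM in NNE, 53.6 in NEP, 3.59 in CP and 17.9 in ENCCs.

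Retinoic acid was in the medium of the last days before day 10, and genes of its pathway differed between the types. Of 19 genes, 14 were compared, 4 were above all 3 types and 2 below, against 5.22% and 2.53% of all compared genes. CYP26A1, which degrades retinoic acid and is induced by it, was at 1198 CPM in NNE, 691 in NEP, 41.5 in CP and 45.4 in ENCCs. DHRS3, which reduces retinal and is likewise induced, was at 213 CPM in NNE, 112 in NEP, 9.97 in CP and 10.2 in ENCCs. RARB, an induced receptor gene, was at 47.7 CPM in NNE, 29.5 in NEP, 15.2 in CP and 11.2 in ENCCs. NNE was highest for all 3 genes, with NEP under 2-fold lower.

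Genes of the binding proteins went in opposite directions. CRABP2, which carries retinoic acid to its receptors, was at 4051 CPM in NNE, 2665 in NEP, 1391 in CP and 909 in ENCCs, and had UMIs in 98.7% of NNE cells at 3000 UMIs. CRABP1, its cytoplasmic relative, was at 5.42 CPM in NNE, 254 in NEP, 997 in CP and 90.2 in ENCCs, with 10 UMIs in 7 NNE cells, so NNE was 16.6-fold (95% interval 9.04 to 34.7) below ENCCs and 184-fold (95% interval 100.0 to 385) below CP. Of the genes of retinoic acid synthesis, ALDH1A2 and ALDH1A3 had 0 UMIs in NNE and ALDH1A1 was at 2.71 CPM in NNE, 86.3 in NEP, 1.60 in CP and 6.52 in ENCCs.

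HOX genes, which record position along the body axis and include retinoic acid targets, were summed over 39 genes, a set chosen after values in it were seen. The sum was 542 CPM in NNE (509 to 576), 138 in NEP, 124 in CP and 17.6 in ENCCs. Of 7 genes compared, 6 were above all 3 types, against 5.22% of all compared genes. HOXB1 was at 127 CPM in NNE, 28.6 in NEP, 19.5 in CP and 0.974 in ENCCs and HOXB2 at 105 CPM in NNE, 30.1 in NEP, 48.7 in CP and 10.3 in ENCCs. HOXA3 was at 55.2 CPM in NNE, 7.55 in NEP, 1.60 in CP and 0.271 in ENCCs. The 7th was HOXB5, at 54.7 CPM in NNE, 2.35 in NEP, 34.3 in CP and 0.0812 in ENCCs, where CP came within 2-fold.

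**Figure D4:**
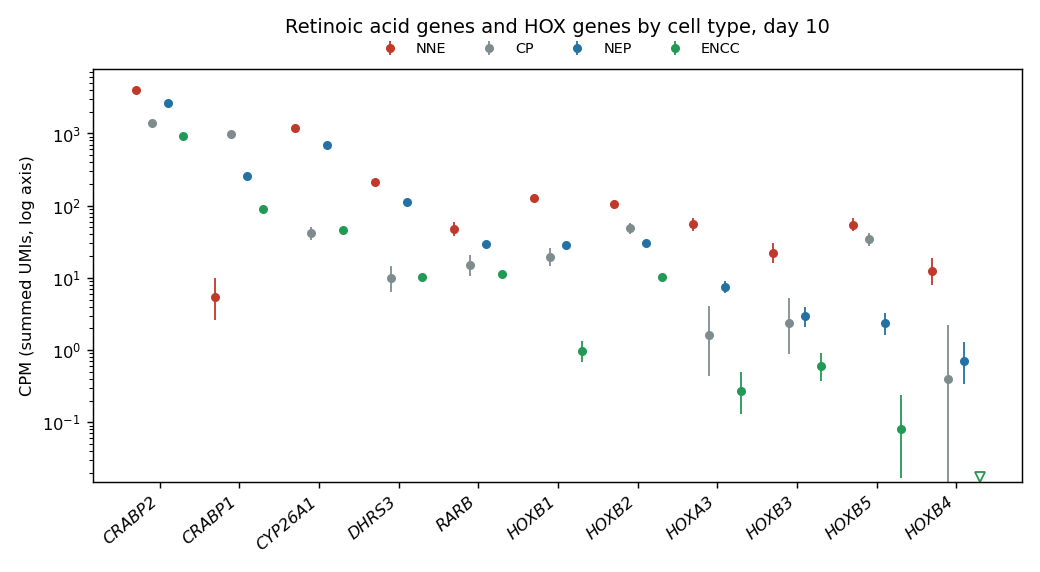
Levels of 11 retinoic acid and HOX genes (CPM, log axis) in the 4 day 10 types, as points with Poisson 95% intervals. The open triangle marks 0 UMIs. NNE is highest for CRABP2, CYP26A1, DHRS3, RARB and all 6 HOX genes shown, and lowest for CRABP1.

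The 7 compared HOX genes all belong to paralogue groups 1 to 5, toward the 3′ end of the clusters. Further 5′, HOXB6 and HOXB7 were at 9.75 and 6.50 CPM, and HOXB8, HOXB9 and HOXA9 had 0 UMIs. HOXB1 had UMIs in 112 of 239 cells, so its level did not rest on few cells.

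Insulin-like growth factor 2 (IGF2), an imprinted growth factor gene named after its value was seen, was at 2163 CPM in NNE, 144 in NEP, 23.9 in CP and 13.8 in ENCCs. NNE was thus above NEP by 15.1-fold (95% interval 14.3 to 15.9). Annexin and S100 genes, which encode calcium-dependent membrane and signalling proteins common in epithelia, were above all 3 types for 6 of 14 compared genes of 20, and below for none. The shares over all compared genes were 5.22% above and 2.53% below. S100A11 was at 564 CPM in NNE, 58.5 in NEP, 55.8 in CP and 51.5 in ENCCs, and S100A10 at 335 CPM in NNE, 80.9 in NEP, 102 in CP and 147 in ENCCs. ANXA3 was at 124 CPM in NNE, 5.56 in NEP, 0.798 in CP and 0.406 in ENCCs, whereas ANXA1 was at 122 CPM in NNE, 327 in NEP, 4.39 in CP and 20.9 in ENCCs and S100A13 at 121 CPM in NNE, 488 in NEP, 92.9 in CP and 56.5 in ENCCs, both highest in NEP.

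Of 12 MHC class I genes, 8 were compared and 2 were above all 3 types, against 5.22% of all compared genes. These were the peptide transporter gene TAP1 (17.3 CPM) and the immunoproteasome gene PSMB8 (22.2 CPM). HLA-C was at 233 CPM in NNE, 125 in NEP, 86.1 in CP and 61.0 in ENCCs and B2M at 167 CPM in NNE, 249.6 in NEP, 112 in CP and 148 in ENCCs. Of 22 integrin and basement membrane genes, 10 were compared, with LAMC1 (42.8 CPM, and 20.7 in NEP) above all 3 types and NID1 (3.79 CPM, and 50.9 in ENCCs) below. The shares over all compared genes were 5.22% above and 2.53% below. Hemidesmosome genes of epidermis were near 0, for ITGB4 had 4 UMIs, COL17A1 had 6 and LAMB3 had 0.

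Endoderm and pluripotency lists were read as checks for other epithelial or undifferentiated cells, since EPCAM and simple keratins are also found there. Of 11 endoderm genes, 2 were compared, 1 was above all 3 types and 1, CXCR4, below, against 5.22% and 2.53% of all compared genes. SOX17, FOXA2, GATA4 and AFP had 0 UMIs in NNE. The gene above was GATA6, at 26.0 CPM in NNE, 2.64 in NEP, 0 in CP and 0.108 in ENCCs. Of 8 pluripotency genes, 3 were compared and 1 was above all 3 types, against 5.22% of all compared genes. NANOG had 2 UMIs, POU5F1 had 4, and TDGF1, UTF1 and PRDM14 had 0, while LIN28A was at 189.6 CPM in NNE, 267 in NEP, 191 in CP and 214 in ENCCs, alike in all types. The gene above was ZFP42, also a trophoblast gene, which was at 36.8 CPM in NNE, 13.5 in NEP, 16.8 in CP and 3.06 in ENCCs.

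In the deposited cell cycle calls, 151 of 239 NNE cells (63.2%, 56.7 to 69.3) were in G1, 42 in S and 46 in G2M. The G1 share was 64.5% in CP, 70.0% in NEP and 39.0% in ENCCs. Scored again in scanpy, the share was 54.0% in NNE and 32.2% in ENCCs, so the level depended on the scoring and the order of these 2 types did not. The NNE share in G2M went from 19.2% to 32.6%.

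The 239 cells were then clustered on their own into 4 sub-clusters, named by number, whose leading genes are given as a description. Sub-cluster 2 (31 cells) held 29 cells called G2M and was led by mitotic genes such as AURKA, CCNA2, PLK1 and MKI67. Sub-cluster 1 (80 cells) had the most S phase cells (27) and was led by SFRP4, CD52 and the replication gene FEN1. Sub-cluster 4 (75 cells) had 74 cells in G1 and was led by CDKN2B, an inhibitor gene of G1 kinases, IGFBP3, the chemokine gene CXCL14 and TAC3. Sub-cluster 3 (53 cells) had 39 cells in G1 and 13 in S, and is not described further.

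The NNE markers were found in all 4 sub-clusters. CLDN7 was at 338, 381, 331 and 361 CPM in sub-clusters 1 to 4. KRT7 was at 401 CPM (353 to 454) in sub-cluster 1 and 284 CPM (241 to 332) in sub-cluster 4. These intervals leave out the spread between cells, and the difference was not tested. At least 3 markers were found, without thinning, in 77.5%, 77.4%, 84.9% and 89.3% of their cells. CRABP2 ranged from 2949.7 CPM in sub-cluster 4 to 5464 in sub-cluster 1. The list of annexin and S100 genes summed to 3087 CPM in sub-cluster 1 and 1927 in sub-cluster 4. The cell cycle calls differed between the same sub-clusters, and their part in these differences was not tested.

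**Figure D5:**
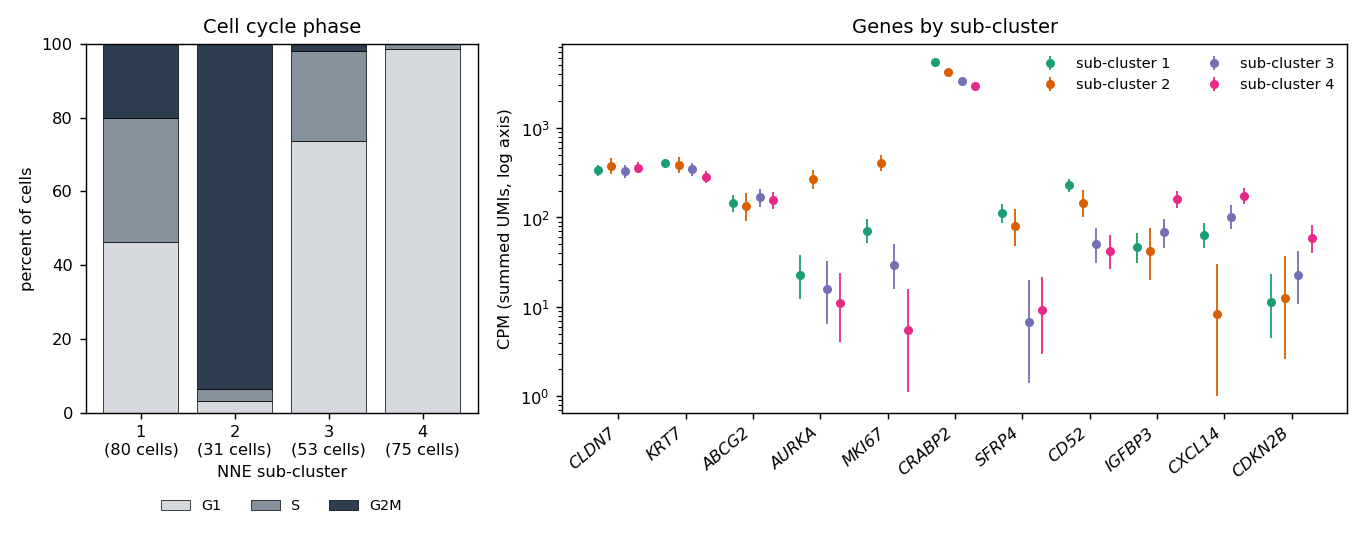
Left, percent of the cells of each NNE sub-cluster in each deposited cell cycle phase. Right, levels of 11 genes (CPM, log axis) by sub-cluster, with Poisson 95% intervals, where CLDN7 and ABCG2 differ little, KRT7 is lowest in sub-cluster 4, AURKA and MKI67 are highest in sub-cluster 2, and IGFBP3, CXCL14 and CDKN2B in sub-cluster 4.

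Cells at the border between the NNE and NEP labels were examined next. Among NEP cells, 17 had at least 3 of the 5 markers without thinning, and genes that did not choose them were read there. Their NEP gene WNT2B was at 227 CPM against 834 in the other NEP cells and 15.2 in NNE. Their IGF2 was at 1229 CPM against 131 and 2163, and their CDH1 at 65.6 against 0.865 and 94.2. These cells lay between both types for all 3 genes, and their median depth was 10549 UMIs against 7203 in the other NEP cells. No doublet caller was run, and the part of doublets in these cells was not tested.

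In the other direction, the 41 NNE cells with only 1 or 2 markers were shallower, with a median of 5642 UMIs against 7718 in the other 198. Their levels of genes outside the marker set were of the NNE kind, with CDH1 at 93.8 CPM, IGF2 at 2453, KRT18 at 1386 and PAX6 at 0 UMIs. The 8 NNE cells with a SOX10 or FOXD3 UMI had KRT18 at 899 CPM, below all NNE cells (2151) and above NEP (538) and ENCCs (41.8). The same 8 cells had WNT2B and PAX6 at 91.2 CPM each, against 15.2 and 8.67 CPM in all NNE cells. Without these 8 cells, 462 genes were above all 3 types and 235 below, and CLDN7 was at 350.4 CPM.

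At day 15 no cells carried the NNE label. Among 5336 annotated cells thinned to 3000 UMIs, 3 had at least 3 of the 5 markers (0.0562%), against 120 of 7275 (1.65%) at day 10. All 3 were among the 104 day 15 cells labelled NEP. The 25 leading NNE genes summed to 395 CPM in day 15 NEP cells and 18.8 in day 15 ENCCs, against 4021 in NNE, 116 in day 10 NEP and 18.8 in day 10 ENCCs. KRT18 was at 374 CPM, CLDN7 at 31.4 CPM and EPCAM at 41.0 CPM in the day 15 NEP cells, while KRT7 had 2 UMIs and ABCG2 and HOXB1 had 0. Stage, medium, culture format and library cannot be told apart, so these values stand side by side without a test.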

How the data were processed

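Single cells of day 10 cultures and day 15 crestospheres were measured with the 10x 3′ v3.1 kit, 1 library per stage. The deposited tables hold raw UMI counts per gene and cell, made by the authors on GRCh38. The submitters' processing notes list Cell Ranger and Seurat 4.0.4, and the study's methods name kallisto and bustools. The deposited annotation gives, as values the authors computed, the percent of mitochondrial and of ribosomal counts, a novelty score of each cell (not used) and other entries, the cell type and the cell cycle phase. Cells were kept by the authors at over 1250 and under 3500 genes, under 20000 UMIs and under 5% mitochondrial counts, which holds for the labels of all but 2 day 10 cells. Median depth was 6713 UMIs per cell at day 10 and 11770.5 at day 15. No doublet caller was run.

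Counts were summed by deposited type and scaled to CPM. A gene was compared if any day 10 type reached 10 CPM, with log2(CPM + 1) and a 2-fold limit. As n = 1 per stage, no test was made. Named genes were the members of 23 gene lists, the 25 genes with the largest smallest log2 difference over the other types (at least 50 CPM in NNE and found in 10% or more of its cells), the 12 lowest in NNE (at least 50 CPM in each other type) and the 12 furthest in each direction against CP (at least 50 CPM in the higher type), without mitochondrial and ribosomal protein genes. IGF2, the HOX set beyond the listed genes and leading genes of sub-clusters were named after their values were seen. Genes, lists and members were chosen with earlier results of these data known. Gene coordinates are those of GENCODE 29. Thinning drew UMIs without replacement with a fixed seed. NNE cells were clustered by Leiden in scanpy 1.11.5 at resolution 0.5, and TMM factors came from edgeR 4.0.16. Alternatives were another pseudocount, filter, scaling, depth, marker limit, phase scoring and resolution. The computations were checked on simulated counts. NECTIN4 was left out because its row could not be matched. Some listed genes are not reported here.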

Additional observations from a re-analysis of the deposited data

Results flagged for a closer look

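Cells outside the annotation carried the NNE markers. Of 2332 day 10 cells that the authors set aside as low quality, 1766 had at least 3000 UMIs, and 51 of these had at least 3 of the 5 markers after thinning, against 120 of 7275 annotated cells of all types (1.65%), made up of 115 of 235 in NNE, 5 of 1798 in NEP, 0 of 323 in CP and 0 of 4919 in ENCCs. By their whole profile 121 of the 2332 cells were closest to NNE, and the same assignment returned 238 of the 239 labelled NNE cells to NNE and added 29 cells of other labels. Of the 121 cells, 76 had 5% or more mitochondrial counts, 34 had 3500 or more genes, 23 had no more genes than the authors' lower limit and 18 had 20000 or more UMIs. The 239 labelled cells and these 121 together were 360 of all 9627 day 10 cells (3.74%), against the labelled 3.28% of annotated cells. These cells entered no other comparison.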

How the results depend on the processing

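Of 8546 compared genes, 446 were above all 3 types, 216 below them, 1234 above CP and 670 below CP. Without a filter these counts were 872, 444, 2538 and 1683, and with a filter of 50 CPM 149, 81, 356 and 197. With a pseudocount of 5 the count below all 3 types was 78, and with cells thinned to 3000 UMIs it was 361, while the other 3 counts stayed within 1.5 times. All 4 stayed within 1.5 times under TMM scaling, as means over single cells and without the 8 NNE cells with crest transcripts. Between 22 and 25 of the 25 leading genes were shared with each alternative. A change of filter alone cannot alter this list, because the rule that picks it does not use the filter. The labelled NNE cells and the removed cells closest to NNE made up 3.74% of all cells, and 1.65% of the cells had at least 3 markers at 3000 UMIs. The share of NNE cells with 3 markers was 28.9% at 2000 UMIs, 72.8% at 5000, 82.8% unthinned and 8.51% when 2 UMIs per marker were required. Scored in scanpy, 54.0% of NNE cells were in G1 and 32.6% in G2M. At day 15, 8 cells had at least 2 markers, and a resolution of 0.25 gave 2 sub-clusters. No paired analysis was possible because each stage is 1 library and the pooled repeats carry no mark in the tables. Depth limits low genes, since 0 UMIs in NNE allows up to 1.62 CPM.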
